A study of Mus musculus with 10 samples.

Results

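The inhibin and activin signalling genes described here are the 8 genes Inha, Inhba, Inhbb, Acvr1b, Acvr2a, Acvr2b, Tgfbr3 and Fst. They were chosen by name, and all covered cytosines inside each gene and up to 2000 bp beyond both of its ends were taken from the deposited counts (genome build mm10). Each locus was divided into the windows within 1000 bp of a gene end, the body between them and the outer flank, and a region counted with at least 3 distinct covered CpGs. All 8 genes had such a region, of 17578 protein-coding genes in the whole data set, and together they had 18 of the 36473 gene regions measured. The 8 loci held 738 of the 1407384 covered CpGs.

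The samples were whole testis DNA of F2 mice, in 5 libraries labelled control and 5 labelled arsenic, and each was measured by reduced representation bisulfite sequencing (RRBS). RRBS cuts DNA at CCGG, which enriches CpG-rich fragments, and reads unmethylated cytosines as thymines. Beyond generation, tissue and group, the labels gave no strain, age, dose, or which ancestor received arsenic, and they did not name the animal behind each library. The p-values below therefore weigh only the spread among these 10 libraries, part of which may be technical.

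Inhibins and activins are secreted dimers that share beta subunits: inhibin pairs the alpha subunit with a beta subunit, and activin pairs beta subunits with each other. Activin binds a type II receptor, which recruits and phosphorylates a type I receptor, and SMAD proteins carry the signal to the nucleus. Inhibin, bound with the coreceptor betaglycan, occupies type II receptors and blocks activin, while follistatin binds activin outside the cell. In the testis, Sertoli cells are a main source of inhibin B, which lowers the release of follicle-stimulating hormone from the pituitary.

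Stretches of 3 loci are shown, those with a covered CpG in the 250 bases before the promoter start. The sequences are from RefSeq promoters (GRCm38.p6, the assembly of mm10), 5′ to 3′ on the + strand, and capitals mark the CpGs that were covered. The table had a promoter for 6 of the 8 genes, and not for Tgfbr3 and Fst. The 250 bases before the starts of Inhbb, Acvr2a and Acvr2b held 0 covered CpGs. The 250 bases upstream of Acvr1b (chr15:101173822-101174071) held 42 CpGs, of which 16 were covered.
Acvr1b: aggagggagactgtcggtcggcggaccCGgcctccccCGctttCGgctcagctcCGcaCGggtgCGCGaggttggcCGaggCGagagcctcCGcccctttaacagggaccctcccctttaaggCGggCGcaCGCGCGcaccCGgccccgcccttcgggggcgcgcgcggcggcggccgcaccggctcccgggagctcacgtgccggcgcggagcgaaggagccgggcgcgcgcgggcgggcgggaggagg
The next stretch, inside Inha (chr1:75507414-75507443), ends 166 bases before the start that the table gives for the gene and holds 3 covered CpGs.
Inha: gaataaggCGtctgcctCGaagacatgcCG
The stretch inside Inhba (chr13:16011673-16011702) ends 149 bases before the start the table gives and holds 2 covered CpGs.
Inhba: agcaatgctcaCGcatcCGagttagcagaa
The methylation level of a region is its methylated reads as a percentage of all reads over its covered cytosines in 1 library, and group values are means ± SD over the 5 libraries of a group. A read counts once for each covered cytosine it spans, so read numbers of regions and loci are sums over cytosines. The 16 capital CpGs of Acvr1b stood at 0.554% ± 0.358 in the control and 0.773% ± 0.629 in the arsenic libraries. The 3 of Inha stood at 65.9% ± 11.7 and 72% ± 7.73. The 2 of Inhba stood at 7.98% ± 1.84 and 7.67% ± 2.51. The Inha stretch thus stood far above the other two in every library, from 47.9% to 80.3%, while the Inhba stretch ranged from 4.86% to 11.7% over the libraries.

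The letters CCGG occurred in all 6 RefSeq promoters of these genes (250 bases before to 50 after the start), and in 52.8% of 32851 promoters. The letters GGGCGG, the GC box, were in 4 of 6, those of Inhbb, Acvr1b, Acvr2a and Acvr2b, against 35.7% of all. CAGAC, the short SMAD-binding element, was in 3 of 6, those of Inha, Acvr2a and Acvr2b, against 49.6%. The cyclic AMP response elements TGACGTCA and TGCGTCA were in 0 of 6 (1.79% and 2.12% of all), and the steroidogenic factor 1 type site TGACCTTG in 0 of 6 (1.56%). Both strands were searched, and none of these motifs contains another. The promoter starts of Inha, Acvr2b and Inhba lie 532, 595 and 7595 bp inside the gene coordinates used elsewhere here. Their searched windows therefore lay wholly inside the gene, and the sequence before the outer start of these genes was not searched.

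Read counts summed over all covered cytosines were 69771871 in control library 4 to 100355708 in arsenic library 3, and median coverage per cytosine was 27 to 40. Control libraries 4 and 5 stood apart, with 16.9% and 18.8% of cytosines fully methylated against 11.1% to 14.9% in the other 8. Their median coverage was low, at 27 and 29, while control 2, also at 29, had 13.5% fully methylated. Mean levels over cytosines were 54.0% and 54.3% in controls 4 and 5, against 53.2% to 53.8% in the other 8. The part of coverage in the fully methylated share was not tested. Differences that move most without controls 4 and 5 are given both ways. As a check of the tissue, the ends of germ cell marker genes (10 of 10 measured) had mean levels of 20.3% to 24.0% over the control and 16.1% to 22.6% over the arsenic libraries. The same ranges were 7.22% to 17.3% and 10.1% to 11.9% for imprinted genes (6 of 11), and 6.75% to 9.18% and 4.24% to 8.46% for Sertoli cell genes (7 of 8). They were 38.0% to 42.4% and 37.4% to 46.5% for Leydig cell genes (5 of 6), and 59.2% to 66.7% and 60.1% to 67.0% for vascular and immune genes (3 of 6). The Leydig and vascular means join very unlike genes. Over the 10 libraries, Star and Cyp17a1 stood at 93.7% and 86.3%, but Cyp11a1, Lhcgr and Insl3 at 7.31%, 4.89% and 11.7%. Pecam1 and Csf1r stood at 93.7% and 92.8%, but Myh11 at 4.01%. For Star, Cyp17a1, Pecam1, Csf1r and Myh11 the strand was not known, and the end with more CpGs was used. In DNA from whole tissue, a change in the mix of cells and a change of methylation within a cell type cannot be told apart. None of these marker genes was called in the test described below. The level was lower in arsenic in 7 of 10 germ cell, 4 of 6 imprinted and 5 of 7 Sertoli cell genes. It was lower in 2 of 5 Leydig and 1 of 3 vascular and immune genes, beside 59.1% of all 13227 genes. An unadjusted p under 0.05 in that test was found for 1 germ cell gene (Asz1) and 2 Sertoli cell genes (Clu and Sox9), all lower in arsenic. The other lists had 0, beside 7.86% of all genes. The part of these genes in the results below was not tested.

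No region of the 8 genes passed the test between arsenic and control libraries. A call needed a Benjamini-Hochberg (BH) adjusted p under 0.05 together with group means at least 10 percentage points apart, in a quasi-binomial model fitted over all 36473 gene regions. Of those, 0 were called (0%), against 2170 with an unadjusted p under 0.05 (5.95%). With limma on log2 ratios 1 region was called, in none of the 8 genes. Adjusted p of the 18 regions of the 8 genes ran from 0.804 to 0.995, and 2 of the 18, the Inhba body and the Inhbb start window, had an unadjusted p under 0.05. Both were lower in arsenic with a control mean under 10%, where a fall of 10 points was not possible, so neither could be called lower. The level was lower in arsenic in 9 of 18 regions and higher in 9, beside 55.2% lower among all gene regions. The median difference, arsenic minus control, was -0.0948 percentage points over the 18 and -0.200 over all regions, and the median size of the difference was 1.15 and 1.12 points. The groups did not overlap in 1 of 18 regions, the Inhba body, beside 0.855% of all regions. The differences of the 8 genes ran from -2.85 points in the Acvr2a body to 3.27 points in the Fst body. Both of these extremes rest on controls 4 and 5: without them the Acvr2a body stood at -0.162 and the Fst body at 0.439 points. Leaving out 1 library in turn gave -4.75 to -1.31 points for the Acvr2a body and 1.15 to 5.37 for the Fst body. Without controls 4 and 5, 5 of the 18 differences moved by over 2 points, those of these 2 bodies, the Inha end window (from -0.406 to -5.72), the Acvr2b body (from -1.67 to -3.72) and the Tgfbr3 higher-coordinate end (from -2.54 to 0.193). None of the 18 was called without them.

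**Figure D1:**
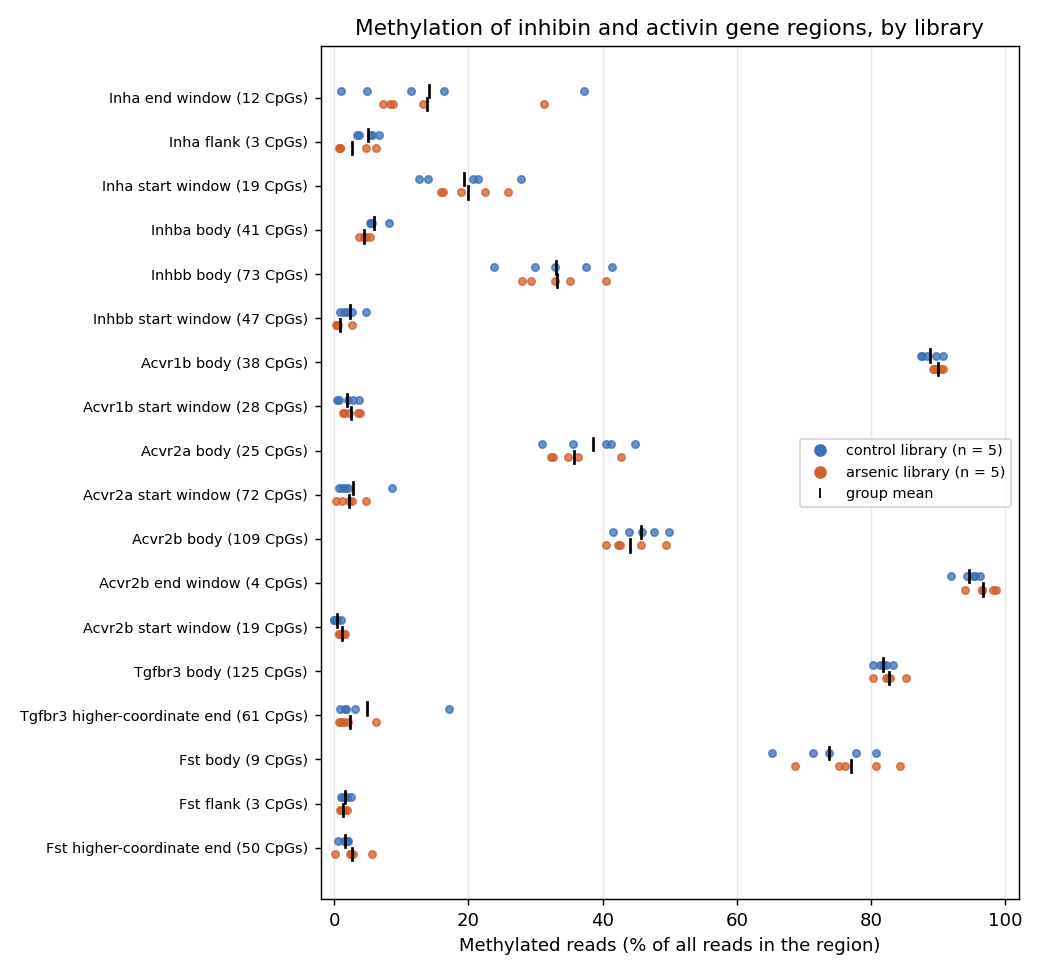
Methylated reads as a percentage of all reads (x axis) in each of the 18 measured regions of the 8 genes (y axis), for 5 control (blue) and 5 arsenic (orange) libraries, with a black tick at each group mean. The windows at CpG-dense starts lie near 0, the bodies spread from the Inhba body at 5.26% to the Acvr1b body at 89.3%, and the groups overlap in every region but the Inhba body.

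**Figure D2:**
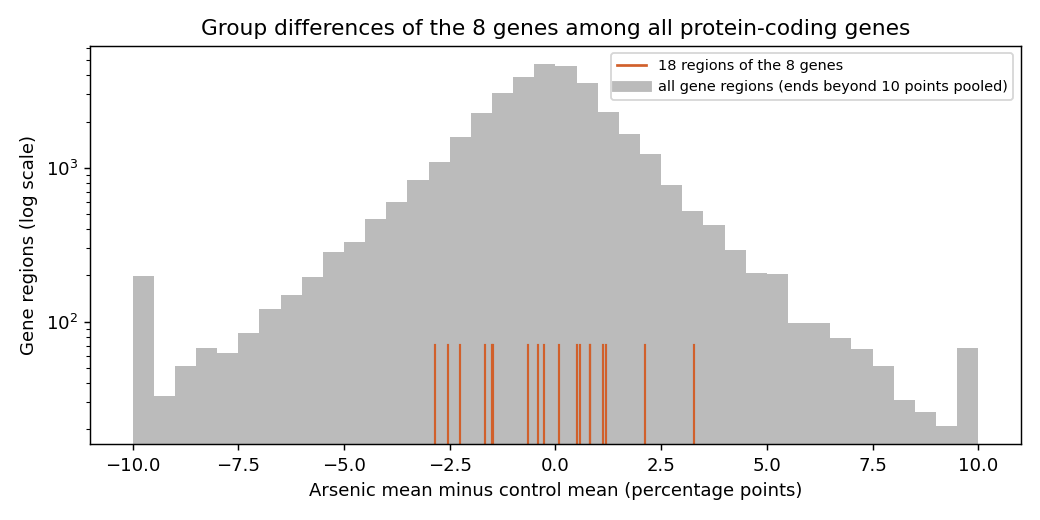
Differences between group means, arsenic minus control, in percentage points (x axis) for all 36473 gene regions (grey; counts on a log y axis, differences beyond 10 points pooled at the ends) and the 18 regions of the 8 genes (orange ticks). The orange ticks lie between -2.85 and 3.27, inside the bulk of the grey distribution.

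Over the 10 libraries the start windows stood in the order Acvr2b (0.760%), Inhbb (1.58%), Fst (2.16%), Acvr1b (2.18%), Acvr2a (2.53%), Tgfbr3 (3.60%) and Inha (19.6%). For Tgfbr3 and Fst, whose strand was not in the tables, the value is that of the window at the higher-coordinate end. Inhba had no covered CpG in the start window of its gene coordinates. Its RefSeq promoter gives a start 7595 bp inside them, and 28 of its body CpGs lie around that start. The library ranges of each pair of neighbours overlapped, including Tgfbr3 (0.747% to 17.1%) and Inha (12.7% to 27.8%), so the order of neighbours is not beyond their spread. The overlap of Tgfbr3 with Inha came from control 5 alone: without it the highest Tgfbr3 library stood at 6.24% and the lowest Inha library at 13.9%. Without control 5 the means of Acvr2a (1.86%), Acvr1b (2.0%), Tgfbr3 (2.1%) and Fst (2.18%) lay close together, in another order. The median of all 10290 start windows was 2.73%. Bodies stood in the order Inhba (5.26%), Inhbb (33.1%), Acvr2a (37.2%), Acvr2b (45.0%), Fst (75.4%), Tgfbr3 (82.2%) and Acvr1b (89.3%), with a median of 82.3% over all 14041 bodies. Here the highest Inhba library (8.15%) lay below the lowest Inhbb library (23.9%), the highest Acvr2b library (49.9%) below the lowest Fst library (65.3%), and the highest Tgfbr3 library (85.1%) below the lowest Acvr1b library (87.4%). The other neighbours overlapped. Of single CpGs, 450 of 738 had a mean level under 10%, 68 lay between 10% and 80%, and 220 were over 80%.

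**Figure D3:**
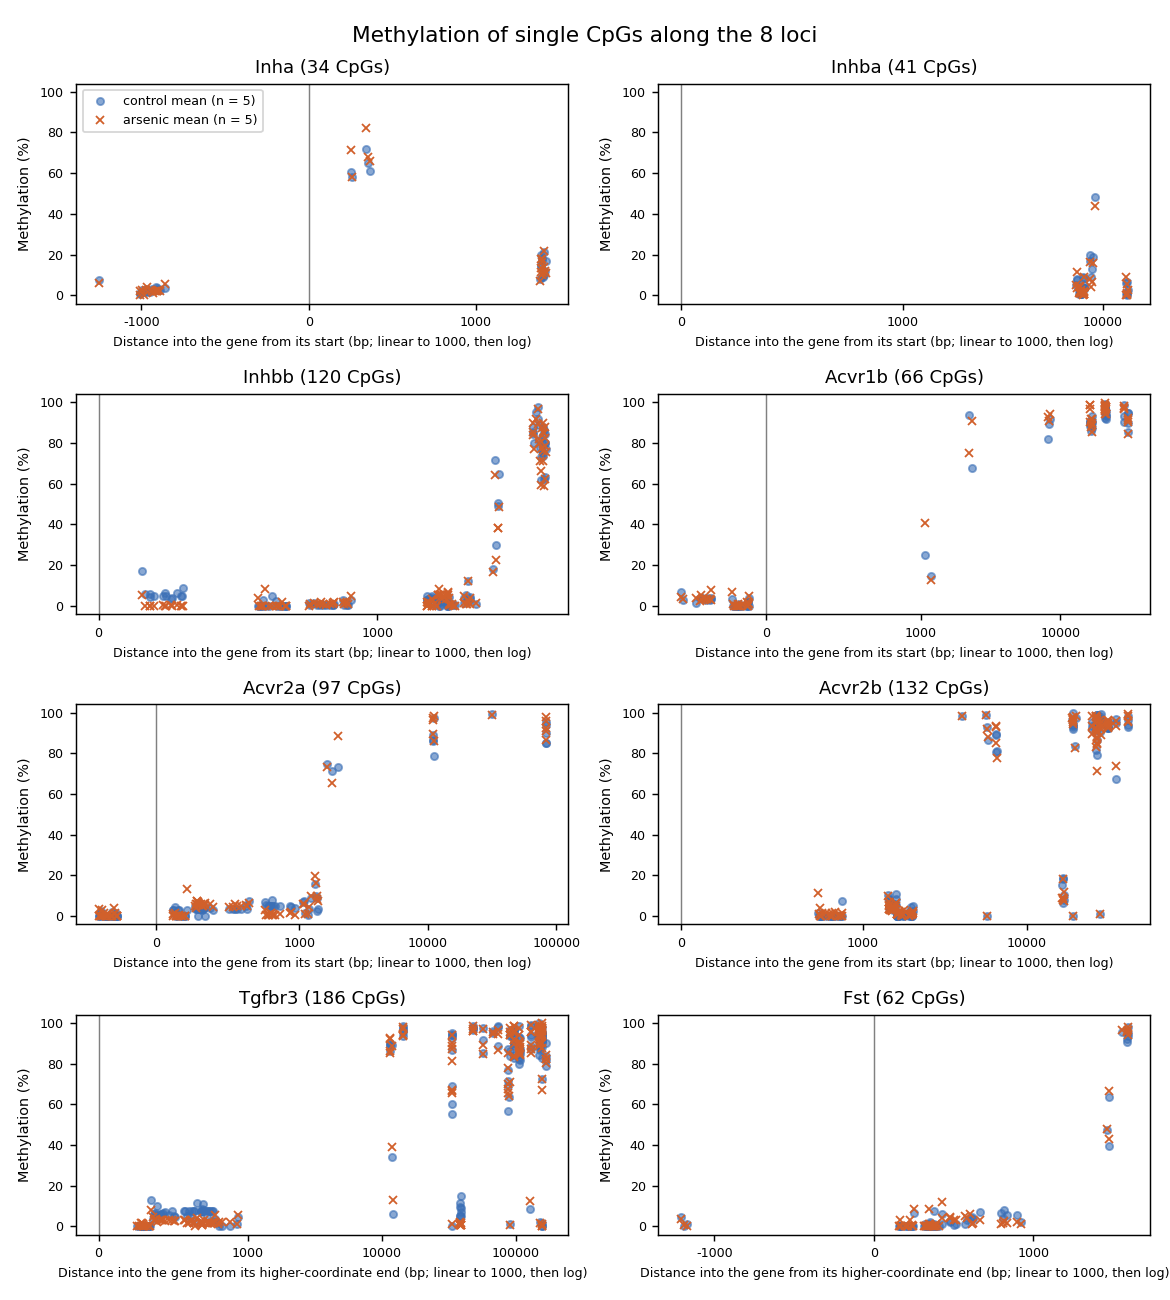
Mean methylation (y axis, percent) of every covered CpG of the 8 loci against its distance into the gene from its start, or from its higher-coordinate end for Tgfbr3 and Fst (x axis, bp, linear to 1000 and log beyond), for control (circles) and arsenic (crosses) means over 5 libraries. In Inhbb, Acvr1b, Acvr2a, Acvr2b, Tgfbr3 and Fst a CpG-dense stretch near 0 gives way to high levels inside the gene, while the highest Inhba CpG stands at 46.1% over the 10 libraries.

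Inha encodes the alpha subunit, the chain that makes a dimer an inhibin. It lies at chr1:75507077-75510366 on the + strand, and its 34 covered CpGs had 1261 to 2479 reads per library. Its start window (19 CpGs) was at the 87.1st percentile of all start windows. The control libraries 1 to 5 stood at 13.9%, 21.4%, 27.8%, 20.7% and 12.7%, and the arsenic libraries at 16%, 18.9%, 25.8%, 22.5% and 16.2%. The groups covered nearly the same range, with a mean of 19.3% ± 6.15 in control and 19.9% ± 4.24 in arsenic (adjusted p = 0.987). The window mixed 2 kinds of CpG. The 16 CpGs at 862 to 1022 bp upstream (2 of them just outside the window) stood at 0.0974% to 6.57% over the libraries, while the 5 CpGs at 252 to 365 bp inside the gene stood at 51.0% to 77.0%. The upstream CpGs lie inside the neighbouring gene Obsl1 (chr1:75485825-75506486), which encodes a cytoskeletal adaptor, and the sequence printed above for Inha holds 3 of the 5 inner CpGs.

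The 12 covered CpGs near the far end of Inha, 2682 to 2926 bp from the start, varied most between libraries. They stood at 4.96%, 37.2%, 16.4%, 0.985% and 11.5% in controls 1 to 5, and at 8.77%, 13.2%, 31.3%, 7.26% and 8.35% in arsenic libraries 1 to 5. Control 2 and arsenic 3 were high and control 4 was near 0, so the spread lay within both groups (14.2% ± 14.2 and 13.8% ± 10.1, adjusted p = 0.995). Their SD over the 10 libraries was at the 98.4th percentile of end windows. At 11 of the 12 CpGs the highest library was control 2 or arsenic 3, and 10 of 12 were at 0 in control 4. These CpGs lie on few fragments and share reads, with 203 to 504 reads over the window per library. The 3 CpGs of the flank stood at 4.98% ± 1.43 and 2.71% ± 2.63 (adjusted p = 0.921). The Inha body held 0 covered CpGs.

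Inhba encodes the beta A subunit of activin A and inhibin A. Its 41 covered CpGs all lay in the body, 7321 to 13401 bp into the gene (chr13:16004256-16031609, + strand), and its start, end and flank held 0. All 41 also lie inside the annotated gene B230303A05Rik (chr13:15813552-16023423), which overlaps Inhba. By these gene coordinates the body was among the least methylated, at the 3.96th percentile of all bodies. However, 28 of its 41 CpGs lie on either side of the start that RefSeq's promoter gives, 7595 bp into the gene. The rank is therefore partly that of CpGs near a start. Control libraries 1 to 5 stood at 8.15%, 5.43%, 5.44%, 5.41% and 5.61%, and arsenic libraries at 4.52%, 4.40%, 3.67%, 5.28% and 4.73%. Every arsenic library lay below every control library, though arsenic 4 and control 4 differed by little, and control 1 stood above the other controls. The means were 6.01% ± 1.2 and 4.52% ± 0.583, and the difference of -1.49 points did not pass (unadjusted p = 0.0235, adjusted p = 0.804); 3.96% of all regions were lower with an unadjusted p under 0.05. Without control 1 the difference was -0.954 points (adjusted p = 0.852).

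Within Inhba, the 28 CpGs at 7321 to 8071 bp, on either side of the start that RefSeq's promoter gives, stood at 4.19% ± 2.24 and 3.19% ± 0.946. The 5 CpGs at 8666 to 8954 bp stood at 14.1% ± 4.93 and 8.56% ± 2.73, and the 7 at 13137 to 13401 bp at 1.96% ± 0.773 and 1.82% ± 0.903. The groups overlapped in all 3 stretches. A single CpG at 9159 bp was the most methylated of the gene, at 48.1% ± 9.33 and 44.0% ± 5.14. The tile of 1000 bp with the smallest p (starting at 16012001, 18 CpGs) stood at 6.0% ± 2.31 and 2.81% ± 0.698 (adjusted p = 0.807).

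Inhbb encodes the beta B subunit of activin B and inhibin B. It lies at chr1:119415463-119422248 on the - strand, with 120 covered CpGs and 4300 to 7350 reads per library. Its start window (47 CpGs) stood at 1.47%, 2.65%, 1.87%, 0.823% and 4.79% in controls 1 to 5, and at 0.371%, 2.60%, 0.373%, 0.328% and 0.522% in arsenic libraries 1 to 5. Of the arsenic libraries, 4 lay below every control, and arsenic 2 lay among the controls. The means were 2.32% ± 1.53 and 0.839% ± 0.989 (unadjusted p = 0.0371, adjusted p = 0.825). With at least 20 reads required in every library, the difference turned from -1.48 to 0.445 points (adjusted p = 0.970), and without control 5 it was -0.864 points (adjusted p = 0.918).

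The difference lay in the 14 CpGs nearest the start, 157 to 304 bp into the gene. They stood at 4.85%, 6.47%, 1.05%, 1.06% and 13.4% in controls 1 to 5 and at 0.186%, 0.361%, 0.179%, 0.0745% and 0.537% in arsenic libraries 1 to 5. The groups did not overlap, controls 3 and 4 were near the arsenic values and control 5 was highest. This was the only one of 57 clusters in the 8 loci (at least 3 CpGs with gaps of at most 200 bp) whose groups did not overlap, beside 0.818% of all clusters. Its means were 5.36% ± 5.06 and 0.267% ± 0.182. Without control 5 the control mean was 3.36%, and without controls 4 and 5 it was 4.12%. These 14 CpGs are also the whole start window when windows reach 500 bp, and in the fit of all such windows the difference of -5.09 points had an adjusted p of 0.593. At 10 of the 14 CpGs all 5 arsenic libraries were at 0. The 33 CpGs at 572 to 906 bp did not share the difference, at 0.788% ± 0.889 in control and 1.21% ± 1.58 in arsenic, with arsenic 2 highest at 4.04%.

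Of all 120 Inhbb CpGs, 24 (20%) had an unadjusted p under 0.05, beside 6.85% of CpGs in the data set, and 14 of the 24 were the 14 CpGs nearest the start, which share reads. The CpG with the smallest p, at position 119422064 and 184 bp into the gene, had 2 of 41, 5 of 60, 2 of 74, 0 of 28 and 11 of 82 methylated reads in controls 1 to 5. In the arsenic libraries together it had 0 of 413, which allows a level of up to 0.726% (adjusted p = 0.642). Limits from a count of 0 are 3 counts of the total. Reads carry no molecular identifiers, so the limits at a single CpG cover counting error only. The tile starting at 119422001 (8 CpGs) had the smallest p of the gene's tiles, at 5.60% ± 5.0 and 0.335% ± 0.352 (adjusted p = 0.732).

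**Figure D4:**
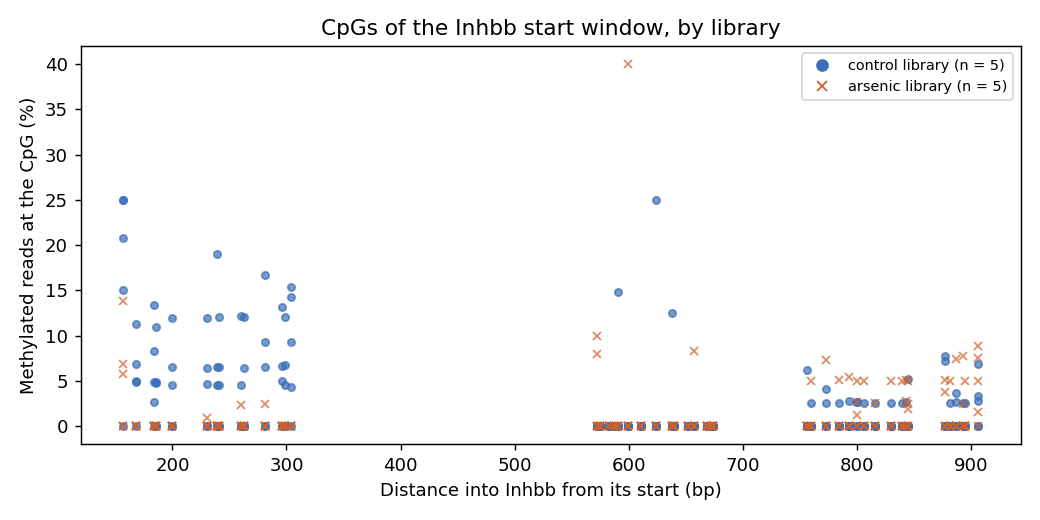
Methylated reads (y axis, percent) at each covered CpG of the Inhbb start window against its distance into the gene (x axis, bp), with 1 point per library, 5 control (blue circles) and 5 arsenic (orange crosses). Between 157 and 304 bp control points reach 25% while most arsenic points lie at 0, and between 572 and 906 bp points of both groups lie mostly under 10%.

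Farther into Inhbb the level went from low to high over a short distance. The 42 CpGs at 1573 to 2485 bp stood at 0.524% to 5.70% over the libraries, the 6 CpGs at 2905 to 3056 bp at 36.2% to 67.6%, and the 25 CpGs at 4169 to 4713 bp at 64.5% to 86.6%. The 6 CpGs of the middle stretch stood at 48.4% ± 11.5 in control, where control 4 was highest, and 39.4% ± 3.12 in arsenic. The body as a whole (73 CpGs) stood at 33.1% ± 6.77 and 33.2% ± 5.0 (adjusted p = 0.981). Its end window and flank held 0 covered CpGs.

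Acvr1b encodes ALK4, the type I receptor of activin. It lies at chr15:101174072-101213684 on the + strand, with 66 covered CpGs. The 28 CpGs of its start window all lay upstream, 109 to 553 bp before the start, and 16 of them are the capitals printed above. They stood at 2.02%, 2.76%, 0.400%, 0.676% and 3.73% in controls 1 to 5 and at 3.51%, 2.15%, 1.40%, 3.80% and 1.33% in arsenic libraries 1 to 5, with overlap (1.92% ± 1.40 and 2.44% ± 1.16, adjusted p = 0.956). The body (38 CpGs) was nearly fully methylated, at 88.7% ± 1.43 and 89.9% ± 0.644 (adjusted p = 0.906). Between these, single CpGs at 1075 and 1170 bp stood at 32.7% and 13.6% over the 10 libraries, and those at 2220 and 2323 bp at 84.3% and 79.1%. The last of these had the smallest p of the gene, with 67.6% ± 16.4 in control and 90.5% ± 11.1 in arsenic, 25 to 50 reads per library and an adjusted p of 0.658. Its neighbour at 2220 bp stood the other way, at 93.6% ± 9.83 and 75% ± 11.8.

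Acvr2a and Acvr2b encode the type II receptors that bind activin. Acvr2a (chr2:48814109-48903264, + strand) had 97 covered CpGs, 72 of them in the start window. That window stood at 1.2%, 1.69%, 2.13%, 0.690% and 8.59% in controls 1 to 5 and at 4.72%, 2.61%, 2.17%, 0.325% and 1.2% in arsenic libraries 1 to 5. Control 5 stood apart, and arsenic 1 was the next highest. The means were 2.86% ± 3.25 and 2.20% ± 1.66 (adjusted p = 0.934), and without control 5 the difference turned from -0.654 to 0.778 points (adjusted p = 0.948). In control 5, 22 of the 72 CpGs were over 15%, and in arsenic 1, 26 were over 10%. These counts use unlike cut-offs and do not compare the libraries. The 21 CpGs at 272 to 403 bp upstream stood at 0% to 1.29% in all libraries. Inside the gene, the level stepped from 5.37% over the 10 libraries at 1393 bp to 73.9% at 1652 bp, a distance with no covered CpG. The body (25 CpGs) stood at 38.6% ± 5.36 and 35.8% ± 4.22 (adjusted p = 0.930), and with each CpG weighted equally its difference turned from -2.85 to 2.86 points.

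Acvr2b (chr9:119401583-119442148, + strand) had 132 covered CpGs. Its start window (19 CpGs, 751 to 886 bp into the gene) had the lowest level of the 18 regions, at the 2.96th percentile of start windows. Controls 1 to 5 stood at 0.322%, 0%, 1.02%, 0% and 0.410%, and arsenic libraries at 1.38%, 1.34%, 0.712%, 1.65% and 0.770%. The groups overlapped through control 3. The 0 of 466 and 0 of 394 counts in controls 2 and 4 would allow levels of up to 0.644% and 0.761% if each count came from its own read. These counts are summed over the CpGs of the window, which share reads, so the true limits are higher. The means were 0.350% ± 0.417 and 1.17% ± 0.411 (adjusted p = 0.876). The body (109 CpGs) stood at 45.8% ± 3.25 and 44.1% ± 3.55 (adjusted p = 0.934) and joined unlike stretches: 45 CpGs at 1414 to 2016 bp stood at 0.190% to 6.14% over the libraries, and 20 CpGs at 26364 to 26813 bp at 88.6% to 95.8%. A further 6 CpGs at 16402 to 16779 bp were low inside the methylated body, at 12.6% ± 5.71 in control and 9.48% ± 3.63 in arsenic. The 4 CpGs of the end window stood at 94.6% ± 1.62 and 96.8% ± 1.80 (adjusted p = 0.898).

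Single positions with few or no methylated reads also lay between highly methylated CpGs. No genome sequence of these mice was used here, so whether each such position is a CpG in them was not tested, and the limits below hold only if it is. In the 8 loci, 124 CpGs lay between 2 covered CpGs over 80% within 200 bp on each side, and 5 of the 124 (4.03%) stood under 5%, beside 5255 of 363055 (1.45%) in the data set. Acvr2b held 3. The CpG at 119407263 had 0 methylated of 1162 reads over the 10 libraries, which allows up to 0.258%, between neighbours at 98.7% and 92.4%. The CpG at 119420591 had 0 of 202 reads, between 95.1% and 95.0%, and the one at 119429439 had 12 of 1140, between 96.8% and 91.4%. Tgfbr3 held the remaining CpGs, at 107132188 (0 of 235 reads) and 107132643 (0 of 310 reads), with neighbours at 91.2% to 93.9%. Thus 4 of the 5 positions had no methylated read in any library of either group.

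Tgfbr3 encodes betaglycan, the coreceptor through which inhibin binds type II receptors. It is the longest of the 8 genes (chr5:107106567-107289629) and had 186 covered CpGs. The window at its higher-coordinate end (61 CpGs) stood at 1.83%, 3.04%, 1.55%, 0.846% and 17.1% in controls 1 to 5 and at 1.49%, 6.24%, 2.12%, 1.07% and 0.747% in arsenic libraries 1 to 5. Control 5 and arsenic 2 each stood apart from the other libraries of their group. The means were 4.87% ± 6.88 and 2.33% ± 2.24 (adjusted p = 0.917), and without control 5 the difference turned from -2.54 to 0.516 points (adjusted p = 0.975). In control 5, 38 of the 61 CpGs were over 15%, and 23 had methylated reads in control 5 and none in controls 1 to 4. In arsenic 2, 14 of the 61 were over 10% and 1 was over 15%. The read counts behind such runs were small at some CpGs: at 107288863 control 5 had 6 methylated of 16 reads, while at 107289186 it had 26 of 107.

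**Figure D5:**
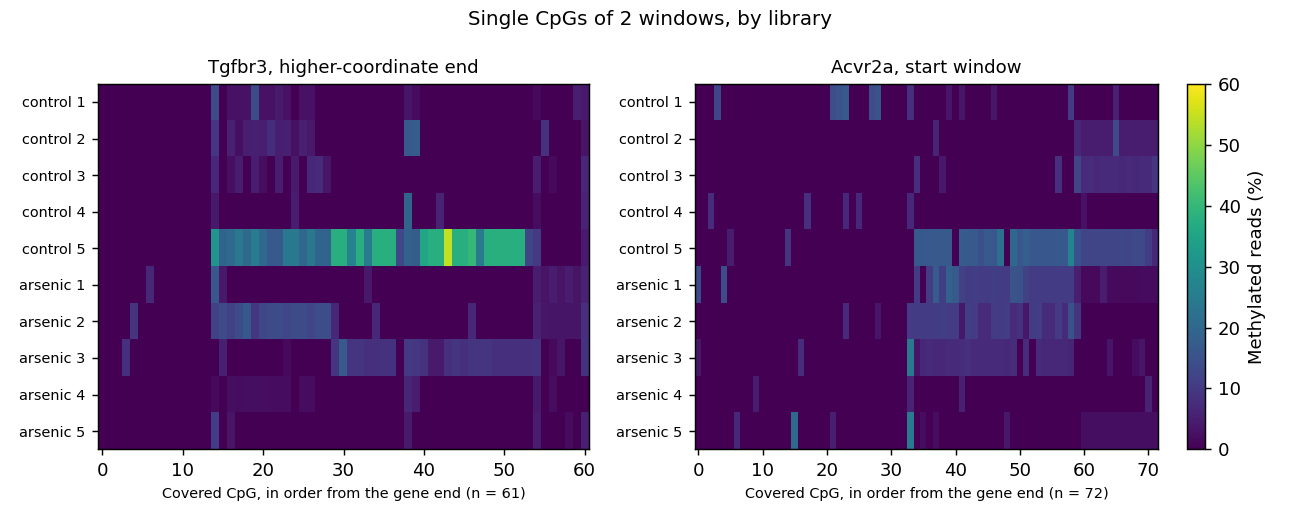
Methylation (colour, percent) of each covered CpG (x axis, in order from the gene end) in each of the 10 libraries (y axis), for the 61 CpGs of the Tgfbr3 higher-coordinate end and the 72 CpGs of the Acvr2a start window. Control 5 holds long runs of raised CpGs in both windows, arsenic 2 a shorter run in Tgfbr3 and arsenic 1 a run in Acvr2a, while most other cells lie near 0.

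The Tgfbr3 body (125 CpGs) stood at 81.8% ± 1.14 and 82.6% ± 1.72 (adjusted p = 0.930). Of its 18 clusters 1 was low, the 8 CpGs at 38632 to 38913 bp from the higher-coordinate end. They stood at 3.09%, 0.602%, 3.25%, 17.7% and 17.5% in controls 1 to 5 and at 1.0%, 4.92%, 0%, 0.671% and 0% in arsenic libraries 1 to 5. Controls 4 and 5 were high and the remaining 8 were under 5%, with only 80 to 246 reads per library summed over these CpGs. Controls 4 and 5 also had the largest shares of fully methylated cytosines, and a link between the 2 was not tested. The means were 8.43% ± 8.43 and 1.32% ± 2.06, and without controls 4 and 5 the control mean was 2.31%. As the tile starting at 107250001 it had the smallest p of the gene's tiles, with an adjusted p of 0.872. The CpG of Tgfbr3 with the smallest p, at 107198082, stood at 85.2%, 88.0%, 88.5%, 73.5% and 82.7% in controls 1 to 5 and at 71.2%, 71.1%, 69.2%, 72.6% and 71.7% in arsenic libraries 1 to 5. Every control lay above every arsenic library, control 4 by little, and the adjusted p was 0.653.

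Fst encodes follistatin, which binds activin and keeps it from its receptors. It lies at chr13:114452262-114458989 and had 62 covered CpGs. Its higher-coordinate end overlaps the annotated gene Gm41074 (chr13:114456504-114474219). Its higher-coordinate end (50 CpGs) stood at 1.45%, 2.01%, 0.632%, 1.93% and 1.98% in controls 1 to 5 and at 2.54%, 2.85%, 5.60%, 0.173% and 2.41% in arsenic libraries 1 to 5. Arsenic 3 was highest and arsenic 4 lowest of all, so the control libraries lay inside the arsenic range (1.60% ± 0.587 and 2.72% ± 1.93, adjusted p = 0.906). The body (9 CpGs) stood at 73.8% ± 5.97 and 77.0% ± 5.92 (adjusted p = 0.945). It held 3 CpGs of intermediate level at 3271 to 3393 bp (54.1% ± 7.86 and 56.0% ± 8.49), and 5 CpGs at 4511 to 4594 bp at 93.8% ± 1.91 and 96.0% ± 2.0. The 3 CpGs of the flank beyond the higher-coordinate end stood at 1.63% ± 0.567 and 1.35% ± 0.372 (adjusted p = 0.959). The Fst CpG with the smallest p, at 114458614, had 7.41% ± 8.26 in control and 0 of 154 reads in arsenic, which allows up to 1.95% (adjusted p = 0.671).

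Over single CpGs, 0 of 1407384 were called (0%), and 96469 (6.85%) had an unadjusted p under 0.05. Of the 738 CpGs in the 8 loci, 52 (7.05%) did. The groups did not overlap at 3 of 738 CpGs, beside 0.575% of all. These were the Tgfbr3 CpG above, an Inhba CpG at 16012940 (16.9% ± 7.37 in control, 8.07% ± 2.56 in arsenic) and an Acvr2a CpG at 48815487 with the opposite sign (2.94%, 1.92%, 2.56%, 2.17% and 3.03% in controls, 3.33% to 13.5% in arsenic). The CpGs with the smallest p in the remaining genes were at 75506095 in Inha (adjusted p = 0.770), 16012231 in Inhba (0.653), 48814922 in Acvr2a (0.671) and 119429791 in Acvr2b (0.682). Of 166012 tiles 0 were called, and 9633 (5.80%) had an unadjusted p under 0.05. Of the 61 tiles that hold a covered CpG of the 8 loci, 2 had one, the Inhba and Inhbb tiles above, and 34 were lower in arsenic, beside 52% of all tiles. In the remaining genes the tile with the smallest p had an adjusted p of 0.965 in Inha, 0.905 in Acvr1b, 0.875 in Acvr2a, 0.893 in Acvr2b and 0.901 in Fst.

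Other genes of the pathway, among them further receptors, SMADs, activin antagonists and related ligands, were described by the window at their start, or at the gene end with more CpGs where the strand was not in the tables. Of 32 listed genes 26 were measured. In 18 the level was lower in arsenic, in 8 higher, and 0 were called. Of all 13227 genes described in this way 59.1% were lower. The median difference was -0.463 points for the list and -0.300 for all genes, and the groups overlapped in all 26, beside 0.983% of all genes whose groups did not overlap. The smallest p belonged to Igsf1, a membrane protein first described as a candidate inhibin coreceptor. It stood at 2.08%, 6.54%, 1.57%, 7.51% and 15.2% in controls 1 to 5 and at 0%, 2.24%, 0.446%, 0.601% and 0.539% in arsenic libraries 1 to 5, with arsenic 2 among the controls (6.58% ± 5.48 and 0.766% ± 0.858, adjusted p = 0.770). Amh, the anti-Müllerian hormone of Sertoli cells and also in the Sertoli list above, stood at 5.42% ± 2.63 and 3.17% ± 1.89 (adjusted p = 0.880). Its strand was not known, and the value is that of its higher-coordinate end. Of those higher in arsenic, Foxh1, a partner of activin SMADs, stood at 53.5% ± 6.75 and 59.5% ± 7.5 (adjusted p = 0.841). This is the lower-coordinate end of Foxh1, whose strand was not known either, so it may not be the start. Fstl3, a follistatin-like activin antagonist, stood at 1.11% ± 0.919 and 4.84% ± 6.07 (adjusted p = 0.856), with arsenic 2 and 4 over 11% and the other 8 libraries under 3%.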

How the data were processed

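RRBS libraries of mouse testis DNA, 5 control and 5 arsenic, were grouped and numbered by their titles. The submitters' processing notes name Trim Galore 0.6.5, Bismark 0.22.3, methylKit 1.22.0 and mm10; how they were set is not given in the sources used here. The table, per the file headers, holds the deposited read counts per cytosine and library (all, methylated, unmethylated), not normalised; its lowest coverage was 10, so a coverage minimum of 10 removed nothing. Read counts summed over cytosines, 69771871 to 100355708 per library, set the precision, and they exceed the number of separate reads.

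Gene coordinates came from a RefSeq table of GRCm38.p6 and strand from RefSeq promoters; exons, introns and UTRs were not used here. Strands of a CpG were summed. Regions, 1000 bp tiles (at least 3 CpGs) and single CpGs were each tested genome-wide with a quasi-binomial logistic model, its dispersion squeezed with limma's method and kept at 1 or more, an F test and BH adjustment; calls needed an adjusted p under 0.05 and at least 10 points. Clusters of CpGs, and CpGs singled out for lack of overlap or for low levels, were chosen after seeing the data and not tested. The members and lists were chosen with earlier results of these data known. By rule, the text names all 8 genes, the CpG and the tile with the smallest p of each gene, and the 2 pathway genes with the smallest p in each direction. Groups of 5 libraries were screened with Dixon's ratio (0.71). Other settings were a coverage of 20, 500 bp windows, limma (pseudocount 1) with and without a replicate block, a binomial test, equal weights and libraries left out. Python 3.11.15, numpy 2.4.6, scipy 1.17.1, pandas 2.3.3, matplotlib 3.10.9, R 4.3.3 and limma 3.58.1 were used, and the model was tested on simulated data.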

Additional observations from a re-analysis of the deposited data

Results flagged for a closer look

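In 6 of the 36 groups of 5 libraries compared (18 regions, each in control and arsenic), a single library stood far from the other 4 by Dixon's ratio; chance flags about 1 in 20 groups. Over all gene regions a control library stood apart in 10.7% and an arsenic library in 9.67%. In the Inha end window arsenic 3 stood at 31.3%. In the Inhba body control 1 stood at 8.15%. In the Inhbb start window arsenic 2 stood at 2.60%. In the Acvr2a start window control 5 stood at 8.59%. In the window at the higher-coordinate end of Tgfbr3 control 5 stood at 17.1% and arsenic 2 at 6.24%. All 6 were the highest of their group, and control 5 stood apart as the highest control in 3.13% of all gene regions, against 0.982% to 2.08% for the other controls.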

How the results depend on the processing

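Levels near 0 rest on few methylated reads, and neighbouring CpGs share reads, so counts of CpGs with a small p do not count independent events. No setting called a region of the 8 genes by the rule of an adjusted p under 0.05 and at least 10 points. In regions with a control mean under 10% a fall of 10 points was not possible, so only a rise could be called there. In the Acvr2b end window, with a control mean of 94.6%, a rise of 10 points was not possible. Under the binomial test on reads, most of the 18 regions had an adjusted p under 0.05 and missed only the size rule. So did a large share of the data set: 16682 of 36473 gene regions (45.7%) had one, whatever the size of the difference. Among the 18, the lowest were 1.57e-34 at the Tgfbr3 higher-coordinate end and 8.95e-27 in the Inhbb start window. Of 309 values of the 18 regions under other settings, 280 kept their direction and 29 turned; 10 regions kept it throughout. Over the settings, 8 to 11 of the 18 were lower in arsenic.

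Over the whole data set the binomial test, which takes reads as replicates, called 214 gene regions (54 higher, 160 lower), 2016 tiles (710 higher, 1306 lower) and 39969 CpGs (16802 higher, 23167 lower). With limma, 1 gene region and 1 tile were called, both higher, and 0 CpGs. All other settings called 0 of each kind. With the replicate number as a block (limma) 0 regions, 0 tiles and 0 CpGs were called. Correlations of deviations of same-numbered libraries were -0.0124 to 0.0165, and 3 of 5 numbers correlated best with their own. Whether the numbers pair the libraries was not tested.

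Differences that turned, in percentage points, were these. With a coverage of 20, the Inha start window stood at -2.45 and the Inhbb start window at 0.445. With 500 bp windows, the Inha end window stood at 0.0765 and the Acvr2a start window at 0.513. Without controls 4 and 5, the Inha start window stood at -1.16, the Acvr2a start window at 0.533 and the Tgfbr3 higher-coordinate end at 0.193. With CpGs weighted equally, the Inhbb body stood at -0.910, the Acvr2a body at 2.86 and the Fst higher-coordinate end at -0.000151; with cytosines weighted equally, the first 2 stood at -1.37 and 2.53. On the log2 scale of limma, with or without the replicate block, the Inha end window stood at 0.42. Leaving out 1 library in turn gave -1.07 to 2.71 for the Inha start window, -4.79 to 5.35 for the Inha end window and -2.22 to 2.15 for the Inhbb body. It gave -1.28 to 0.778 for the Acvr2a start window and -3.55 to 0.516 for the Tgfbr3 higher-coordinate end. The cause of these turns was not tested, apart from the settings' own construction (fewer libraries or cytosines).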
